A study of Mus musculus with 21 samples.

Results

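*Rbm3* and *Cirbp* encode a pair of small RNA-binding proteins whose RNA is known to become more abundant in mildly cooled cells. They were taken from the deposited table of reads per gene by symbol, and are 2 of its 21654 genes. *Rbm3* was chosen by its measured counts, which differ among the diet groups in these same libraries, and *Cirbp* was chosen as its closest relative, so the group levels and folds of both genes are given as a description, with no test. How *Rbm3* and *Cirbp* vary with each other inside a group did not enter that choice, and it carries the test of whether the genes move together.

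The tissue was punches of the ventral hypothalamus (VH), labelled circumventricular hypothalamus, from male C57BL/6J mice that arrived at 12 to 14 weeks of age. Mice ate regular chow (RC) or a high-fat diet (HFD) for weeks, and then either underwent a diet switch (DS) to the other food a week before tissue was taken or did not (NoDS). RC NoDS, HFD → RC and HFD NoDS are represented by 5 libraries each, and RC → HFD by 6. Each library held the RNA of 2 pooled mice, so the spread between single animals cannot be read from it. All mice were kept awake for 3 hours with unfamiliar objects before sacrifice at zeitgeber time 6, and no library comes from mice left to sleep or from cooled or warmed mice. The sources used here give no body temperature for these animals. Markers of the ventral hypothalamus (*Pomc*, *Agrp*, *Npy*, *Nr5a1*, *Kiss1*, *Tac2*, *Ghrh* and *Fezf1*) were present in every library, with 8 of 8 genes above 0 and *Pomc*, the precursor of satiety peptides, the most abundant. The deposited values are whole reads per gene, drawn at random by the authors to the same depth in each library, and they summed to between 16380781 and 16390598 reads per library (median 16386024).

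As background, *Rbm3* and *Cirbp* proteins each carry an RNA recognition motif followed by a glycine-rich tail, bind messenger RNAs, and influence their stability, translation and choice of polyadenylation site. Both RNAs follow the daily cycle of body temperature in many tissues, and *Cirbp* is known to help sustain high-amplitude clock rhythms in cultured cells. *Rbm3* is known from cooled and hibernating brain, where it has been tied to the rebuilding of synapses through signalling by the neurotrophin receptor TrkB. Heat shock chaperones respond to temperature in the opposite direction, since they are induced by warmth.

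*Rbm3* (ENSMUSG00000031167) lies on chromosome X from 7716101 to 7723006 on the minus strand of NCBIM37 (mm9), with 12 annotated transcripts and 4698 bases of exon. *Cirbp* (ENSMUSG00000045193) lies on chromosome 10 from 79628730 to 79635531 on the plus strand, with 7 transcripts and 2604 bases of exon. Averaged over the 21 libraries, the level per length was 165 reads per kilobase of exon for *Rbm3* and 588 for *Cirbp*. These lengths join the exons of all annotated transcripts, so the values do not compare the levels of the genes. The transcripts examined below have 1338 bases for *Rbm3* and 1321 for *Cirbp*. No other annotated gene overlapped *Cirbp*. The 5′ end of *Rbm3* overlapped *2900002K06Rik*, transcribed from the other strand, which had between 0 and 23 reads per library. The next gene along from *Rbm3*, *Wdr13*, had between 1684 and 2419 reads.

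The *Rbm3* count is uncertain in a way that the *Cirbp* count is not, because processed copies of *Rbm3* lie elsewhere in the mouse genome. Of 1239 windows of 100 bases, the read length, along the *Rbm3* transcript examined, 882 (71.2%) also occurred without a mismatch at another place in the genome. The same search with the *Cirbp* transcript found such a match for 0 of 1222 windows. The 4 copies of *Rbm3* lay on chromosomes 1, 2, 7 and 13. The copy on chromosome 13, inside an intron of *Dapk1*, shared the longest unbroken run of *Rbm3* sequence, 838 bases. Copies annotated as genes had few reads, with 23 in all 21 libraries together for *Gm15453* on chromosome 1, 3 for *Gm10156* on chromosome 7 and 1 for *Gm13624* on chromosome 2. Whether a read that matched both *Rbm3* and a copy was counted is not given in the sources used here. If such reads were left out, the *Rbm3* count would rest on the remaining 357 windows.

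The last 100 bases of the *Rbm3* coding sequence are shown because they span an exon junction and still occur elsewhere, so that a spliced read cannot be assigned by sequence alone. The stretch was read from the annotated transcript, and the copies from NCBIM37 on the matching strand. It was found without a mismatch at chr7:115006915-115007014 (plus strand) and at chr13:60743274-60743373 (plus strand). At chr2:69637208-69637307 (minus strand) it was found with 2 mismatches, shown in capitals. The copy on chromosome 1 held no ungapped match with 5 or fewer mismatches.
Rbm3 and the copies on chromosomes 7 and 13: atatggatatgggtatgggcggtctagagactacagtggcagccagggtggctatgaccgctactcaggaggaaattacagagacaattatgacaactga
copy on chromosome 2: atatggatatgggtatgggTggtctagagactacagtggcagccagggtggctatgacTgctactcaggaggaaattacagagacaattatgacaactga

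*Rbm3* was highest with stable chow and lowest after the switch from chow to the high-fat diet. In RC NoDS the *Rbm3* counts were 837, 982, 1053, 990 and 912 reads (955 ± 82.7, mean ± SD, n = 5). In RC → HFD they ran from 533 through a median of 596.5 to 684 reads (609 ± 58.2, n = 6). Every RC → HFD library thus lay below every RC NoDS library, a pattern of counts shared by 90 of the 12768 genes that averaged at least 50 reads (0.705%). In HFD → RC the *Rbm3* counts were 911, 842, 948, 730 and 631 reads (812 ± 131, n = 5). In HFD NoDS they were 726, 827, 776, 716 and 737 reads (756 ± 45.6, n = 5). HFD → RC was the most scattered group for *Rbm3*, and it overlapped all 3 other groups.

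The order of the *Rbm3* mean counts was RC NoDS, HFD → RC, HFD NoDS and RC → HFD, from high to low. The libraries of HFD → RC overlapped those of its neighbours in that order, RC NoDS and HFD NoDS. Its mean lay below that of RC NoDS by more than the SD of either group, and above that of HFD NoDS by less than its own SD. HFD NoDS lay above RC → HFD in every library, as 68 of the 12768 genes did (0.533%). HFD NoDS lay below RC NoDS by count, as 59 genes did (0.462%), but by a margin of 827 to 837 reads, and after TMM scaling these groups overlapped. *Rbm3* was chosen on these differences, so nothing is read from those shares. In CPM, reads scaled by TMM to a shared library total, the *Rbm3* level averaged 57.8 ± 5.28 in RC NoDS, 37.5 ± 3.36 in RC → HFD, 50.1 ± 8.42 in HFD → RC and 46.4 ± 3.25 in HFD NoDS (mean ± SD).

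The fitted log2 fold changes of *Rbm3* (edgeR, given with SE and no test) were largest between the chow groups with and without the switch. From RC NoDS to RC → HFD the *Rbm3* difference was -0.62 ± 0.102, a ratio of mean counts of 0.638. From RC NoDS to HFD NoDS, stable diets compared, it was -0.32 ± 0.107. From RC → HFD to HFD → RC, the switched groups, it was 0.42 ± 0.102. Between the groups eating the high-fat food at the end, the difference from RC → HFD to HFD NoDS was 0.31 ± 0.103. For mice first fed the high-fat diet, *Rbm3* in HFD → RC and HFD NoDS differed by less than their spread, at -0.11 ± 0.107. The difference between HFD and RC as the current food was thus 0.51 ± 0.148 less negative after weeks of HFD than after weeks of RC, also given with no test. The difference from RC NoDS to HFD → RC was -0.21 ± 0.107.

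*Cirbp* showed the same order of group means as *Rbm3*, over a smaller range. Part of this order turned under alternative analyses. The fitted *Cirbp* difference from HFD → RC to HFD NoDS kept its sign in 26 of 29, and that from RC NoDS to HFD → RC in 27 of 29. In RC NoDS the *Cirbp* counts were 1601, 1432, 1855, 1483 and 1772 reads (1629 ± 182, mean ± SD, n = 5). In RC → HFD they ran from 1344 through a median of 1381.5 to 1652 reads (1419 ± 115, n = 6). Of these 6 libraries, replicate 9 stood apart at 1652 reads. In HFD → RC the *Cirbp* counts were 1718, 1628, 1509, 1422 and 1509 reads (1557 ± 116, n = 5). In HFD NoDS they were 1528, 1908, 1500, 1281 and 1470 reads (1537 ± 229, n = 5). All 6 pairs of groups overlapped for *Cirbp*, and the means of neighbours in the order differed by less than the larger of their SDs. HFD NoDS held both the highest and the lowest *Cirbp* count of the 21 libraries.

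The fitted log2 fold change of *Cirbp* from RC NoDS to RC → HFD was -0.17 ± 0.0927 (SE). The other *Cirbp* differences were smaller, at -0.06 ± 0.0969 from RC NoDS to HFD NoDS and 0.13 ± 0.0928 from RC → HFD to HFD → RC. TMM-scaled *Cirbp* levels averaged 98.6 ± 11.2 CPM in RC NoDS, 87.5 ± 7.01 in RC → HFD, 95.9 ± 7.29 in HFD → RC and 94.4 ± 15.2 in HFD NoDS (SD).

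The coefficient of variation of the *Rbm3* counts was 8.66% in RC NoDS, 9.55% in RC → HFD, 16.1% in HFD → RC and 6.02% in HFD NoDS. That of the *Cirbp* counts was 11.2%, 8.14%, 7.45% and 14.9% in the same order of groups. *Cirbp* was thus the more variable gene inside RC NoDS and HFD NoDS, and *Rbm3* inside RC → HFD and HFD → RC. The *Cirbp* values of RC → HFD and HFD NoDS each lean on 1 library. In RC → HFD it is replicate 9, with 1652 reads against 1344 to 1396 in the others. In HFD NoDS it is replicate 20, with 1908 reads against 1281 to 1528. The sampling of reads alone would give between 3.24% and 4.05% for *Rbm3* and between 2.48% and 2.65% for *Cirbp*.

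The group means of *Rbm3* lay farther apart than those of *Cirbp*, and the ratio of the genes differed accordingly among the groups. In RC NoDS there were 1.71 ± 0.227 *Cirbp* reads per *Rbm3* read (SD, range 1.46 to 1.94). In RC → HFD this ratio was 2.34 ± 0.215 (range 1.99 to 2.60). The ratio was thus higher in every RC → HFD library than in any RC NoDS library, and all other pairs of groups overlapped. The *Rbm3* difference on which the gene was chosen enters this ratio, so nothing is read from the separation. The ratio averaged 1.95 ± 0.286 in HFD → RC and 2.03 ± 0.194 in HFD NoDS. A ratio of reads shows unequal change. It is not a ratio of molecules, because whether reads shared with the copies of *Rbm3* were counted is not given. The transcripts examined were of similar length, at 1338 bases for *Rbm3* and 1321 for *Cirbp*.

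**Figure D1:**
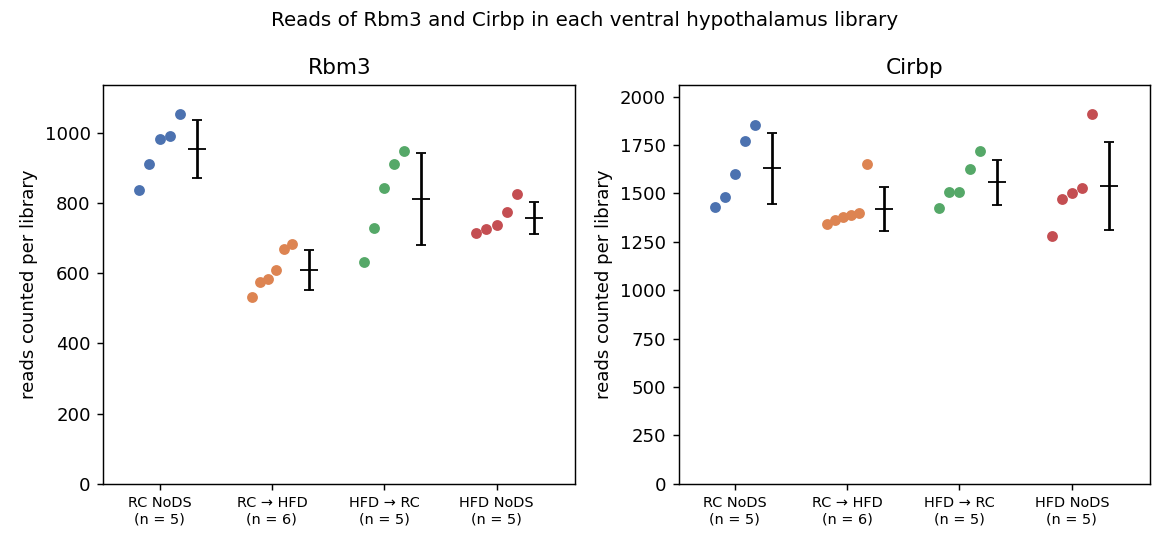
Reads per library of *Rbm3* and *Cirbp* in the 4 diet groups, with each library as a point and the group mean and SD as bars. The 6 RC → HFD libraries lie between 533 and 684 *Rbm3* reads, below all RC NoDS libraries, while the *Cirbp* groups overlap.

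Other measures of the libraries were set beside the levels of *Rbm3* and *Cirbp*. Of 3116 genes with a mean of 5 to 50 reads, the proportion without a read can be higher where fewer distinct RNA molecules were sampled. This share averaged 3.22% in RC NoDS, 11.9% in RC → HFD, 16.5% in HFD → RC and 16.3% in HFD NoDS. In RC → HFD it was 2.31% to 6.58% in replicates 7 to 9 (*Rbm3* 608 to 684 reads). It was 17.6% to 22.4% in replicates 10 to 12 (533 to 585 reads). The share was highest in HFD → RC replicate 17 (31.9%, *Rbm3* lowest of its group) and HFD NoDS replicate 20 (32.9%, *Rbm3* highest of its group). With the share as a covariate, an alternative chosen after seeing the data, the *Rbm3* difference from RC NoDS to RC → HFD was -0.57 ± 0.107 (SE). The difference from RC NoDS to HFD → RC was then -0.12 ± 0.118, against -0.21 without the covariate, and that from RC NoDS to HFD NoDS was -0.22 ± 0.122, against -0.32. The *Cirbp* difference between the stable diets was -0.14 ± 0.112, against -0.06. From RC NoDS to RC → HFD the *Cirbp* difference was -0.22 ± 0.0976, against -0.17, and from RC NoDS to HFD → RC it was -0.11 ± 0.109, against -0.04. The part of this share in the levels of *Rbm3* and *Cirbp* beyond these fits was not tested.

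Red blood cell markers were summed in each library. None of the 3 was called by edgeR in the 3 diet comparisons of the study (for *Hbb-b1* among all 4 groups, adjusted p = 0.420). The pair RC NoDS and RC → HFD is not among these comparisons, and its test of the markers is not reported here. The sum of *Hba-a1*, *Hbb-b1* and *Alas2*, of which 3 of 3 were above 0 in every library and *Hbb-b1* was the most abundant, was 2574, 3508, 3240, 2894 and 2511 reads in RC NoDS. In RC → HFD the sum was 1376, 1604, 1654, 848, 1406 and 963 reads. These groups did not overlap in the blood marker sum, just as they did not overlap in *Rbm3*. The sum was 5239, 1875, 2005, 506 and 2771 reads in HFD → RC, and 1261, 3121, 1125, 2453 and 1527 reads in HFD NoDS. The means, 2945 reads in RC NoDS, 1309 in RC → HFD, 2479 in HFD → RC and 1897 in HFD NoDS, had the same order as the *Rbm3* means. Without HFD → RC replicate 13, the library at 5239 reads, the mean of HFD → RC was 1789 and the order no longer matched. With this sum as a covariate, also chosen after seeing the data, the *Rbm3* difference from RC NoDS to RC → HFD was -0.53 ± 0.122 and the *Cirbp* difference was -0.08 ± 0.108, against -0.17 without the covariate. The *Cirbp* difference from RC NoDS to HFD NoDS was then -0.0061 ± 0.101, against -0.06, and that from RC → HFD to HFD → RC was 0.08 ± 0.0951, against 0.13. The *Cirbp* difference from RC NoDS to HFD → RC turned sign, at 0.0050 ± 0.0986 against -0.04. The part of blood in the levels of *Rbm3* and *Cirbp* beyond these fits was not tested. In bulk samples fewer cells of a type and less RNA per cell cannot be told apart.

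Oligodendrocyte markers (*Mbp*, *Mog*, *Mobp* and *Mag*, 4 of 4 above 0 in every library, *Mbp* the most abundant) were summed in the same way. Of these, *Mobp* alone was called by edgeR, among all 4 groups (adjusted p = 0.125, lost in 14 of 28 alternatives), and *Mbp* was not (adjusted p = 0.225). Their sum in RC NoDS was 22629, 26217, 33931, 24819 and 36694 reads (mean 28858). In RC → HFD it was 38765, 31705, 30649, 32110, 27980 and 42636 reads (mean 33974). These groups overlapped in the sum. It was 70396, 98009, 53189, 28430 and 43254 reads in HFD → RC (mean 58656), and 38114, 68224, 33282, 64458 and 28548 in HFD NoDS (mean 46525). Inside the groups, 4 of 4 of these markers had a positive r with *Rbm3*, from 0.37 for *Mog* to 0.55 for *Mag*. The same 4 had a positive r with *Cirbp*, from 0.38 for *Mobp* to 0.43 for *Mbp*. Over all genes, 6460 of 12766 had a positive r with *Rbm3* and 6447 with *Cirbp*. With *Rbm3*, r was also positive for 4 of 4 neuron, 5 of 5 astrocyte and 4 of 4 anterior pituitary markers. It was positive for 4 of 8 endothelium and pericyte markers and 2 of 7 tanycyte and ependyma markers. The 4 oligodendrocyte genes mark the same cells, so they are not 4 separate observations. With the sum as a covariate, again chosen after seeing the data, the *Rbm3* difference from RC NoDS to RC → HFD was -0.66 ± 0.0998 (SE). The *Rbm3* difference from RC NoDS to HFD → RC was then -0.35 ± 0.129, against -0.21 without the covariate. The *Cirbp* difference from RC NoDS to RC → HFD was -0.21 ± 0.0883, against -0.17. From RC NoDS to HFD → RC it was -0.18 ± 0.113, against -0.04, and that from RC NoDS to HFD NoDS was -0.15 ± 0.101, against -0.06. From RC → HFD to HFD → RC the *Cirbp* difference was 0.03 ± 0.101, against 0.13. The *Cirbp* difference from HFD → RC to HFD NoDS turned sign, at 0.02 ± 0.0934 against -0.02. The part of these cells in the levels of *Rbm3* and *Cirbp* beyond these fits was not tested.

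Lateral hypothalamus markers (*Hcrt* and *Pmch*, 2 of 2 above 0 in every library, *Pmch* the most abundant) bear on where the punches were taken. The study aimed its punches to exclude this region, and left out those with too little enrichment of *Agrp* and *Pomc* over *Hcrt*. The study reported *Hcrt* as similar in all diet groups, by its normalised read counts as well as by RT-qPCR. Their sum was 1003, 1827, 696, 439 and 378 reads in RC NoDS (mean 869), and 2400, 2400, 2060, 829, 831 and 1412 reads in RC → HFD (mean 1655). It was 1842, 791, 954, 1427 and 902 reads in HFD → RC (mean 1183), and 678, 2344, 2013, 753 and 2003 reads in HFD NoDS (mean 1558). All pairs of groups overlapped, and the means ran in the reverse order of the *Rbm3* means. *Hcrt* was called by edgeR from RC NoDS to HFD NoDS (adjusted p = 0.0513, lost in 9 of 29 alternatives), and *Pmch* was not (adjusted p = 0.768). Inside the groups, r with *Rbm3* was 0.37 for *Hcrt* and 0.28 for *Pmch*, and r with *Cirbp* was 0.56 and -0.05. The part of this sum in the levels of *Rbm3*, *Cirbp* and *Trh* was not tested.

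Whether *Rbm3* and *Cirbp* move together was tested inside the groups, on log2 TMM-scaled CPM with each group's mean subtracted. Over the 21 libraries, Pearson's r between *Rbm3* and *Cirbp* was 0.43 (two-sided permutation p = 0.0338, 0.0675 after Benjamini-Hochberg adjustment over r and rho). Spearman's rho was 0.39 (permutation p = 0.0947, adjusted p = 0.0947). Neither adjusted value passed the threshold of 0.05, and a positive relation between the genes was therefore not established at this number of libraries. Both genes lay on the same side of their group means in 14 of 21 libraries, above in 5 and below in 9. The spread inside the groups was alike for both genes, with a residual SD of 0.16 on the log2 scale for each.

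Without the 2 libraries farthest from the median of *Rbm3*, RC NoDS replicate 3 and RC → HFD replicate 11, r was 0.38 (permutation p = 0.0750, adjusted p = 0.15) and rho was 0.33 (adjusted p = 0.184). With the share of genes at 0 regressed out of *Rbm3* and *Cirbp*, r was 0.59 (permutation p = 0.0128, adjusted p = 0.0197) and rho 0.57 (adjusted p = 0.0197), both past the threshold. Inside the groups that share had an r of -0.38 with *Rbm3* (permutation p = 0.158, adjusted over 12 relations 0.316) and of 0.27 with *Cirbp* (permutation p = 0.286, adjusted p = 0.382). With the red blood cell markers regressed out, an alternative chosen after seeing the data, r between *Rbm3* and *Cirbp* was 0.36 (permutation adjusted p = 0.101). That marker sum had an r of 0.32 with *Rbm3* (permutation p = 0.394, adjusted p = 0.429) and 0.34 with *Cirbp* (permutation p = 0.120, adjusted p = 0.316). With the oligodendrocyte markers regressed out, also chosen after seeing the data, r between *Rbm3* and *Cirbp* was 0.30 (permutation adjusted p = 0.246) and rho 0.24 (adjusted p = 0.294). The oligodendrocyte sum had an r of 0.44 with *Rbm3* (permutation p = 0.135, adjusted p = 0.316) and 0.42 with *Cirbp* (permutation p = 0.0959, adjusted p = 0.316). The adjusted p of r thus lay on either side of the threshold according to which library measure was held fixed.

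Single libraries also moved the relation of *Rbm3* and *Cirbp* across the threshold. Leaving out RC NoDS replicate 2, 5 or 6, RC → HFD replicate 7 or HFD → RC replicate 15 brought the adjusted p of r under 0.05, with HFD → RC replicate 15 giving the highest r, 0.49. Leaving out any of the other 16 did not, and r was lowest, 0.35, without HFD NoDS replicate 20. Without centring, r was 0.56 and rho 0.58, values that include the group differences used to choose *Rbm3* and are given with no test.

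**Figure D2:**
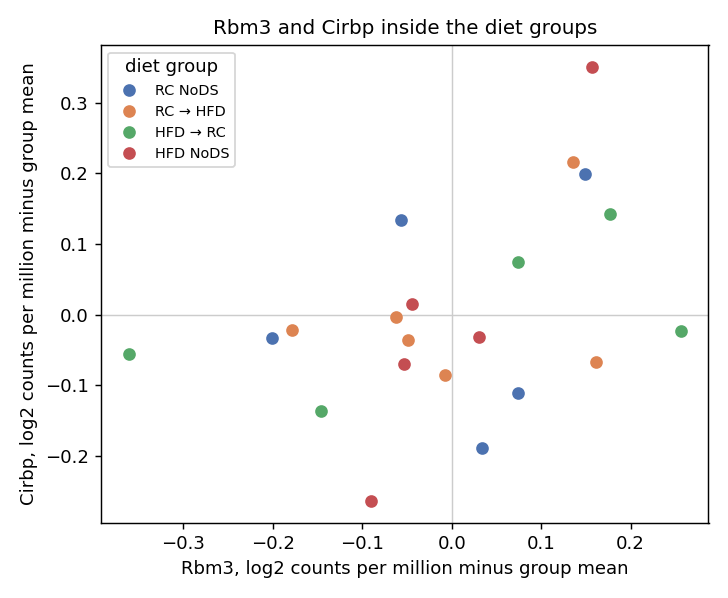
*Cirbp* against *Rbm3* in the 21 libraries, as log2 TMM-scaled CPM with the group mean subtracted, coloured by diet group. The points rise loosely together (r 0.43), and 14 of 21 lie in the lower left or upper right.

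Other genes tracked *Rbm3* more closely than *Cirbp* did. Inside the groups, *Cirbp* ranked 831 among 12767 genes by r with *Rbm3*, so that 6.51% of genes had an r at least as high. *Rbm3* ranked 1374 among 12767 genes by r with *Cirbp* (10.8%). Without centring the ranks were 39 (0.306%) and 117 (0.916%), which again include the group differences.

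The genes most like *Rbm3* inside the groups, over 21 libraries, were *Pgap3* (r 0.76), *Sntb2* (0.76), *Ccdc48* (0.74), *Gpt2* (0.74) and *Sema4f* (0.73). These encode, among others, an enzyme that remodels lipid anchors of membrane proteins, a syntrophin of the dystrophin complex, a mitochondrial alanine aminotransferase and a semaphorin. All 5 also had a positive r with *Cirbp*, from 0.31 for *Ccdc48* to 0.60 for *Sema4f*. Least like *Rbm3* were *Pfdn1* (-0.76), a subunit of the chaperone prefoldin, *Cyb561d2* (-0.75) and *Mrpl24* (-0.75), a protein of the mitochondrial ribosome. The genes most like *Cirbp* were *Gmeb1* (r 0.82), *Chchd10* (0.80), *Acsf3* (0.78), *Sertad1* (0.77) and *Plbd2* (0.77). Their r with *Rbm3* ran from 0.34 for *Plbd2* to 0.57 for *Gmeb1*. Least like *Cirbp* were *Spag6* (-0.84), *Ergic2* (-0.83) and *Znrf2* (-0.81). The lists of the nearest genes to *Rbm3* and to *Cirbp* shared no gene. These values are the extremes of many genes and are given with no test.

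The diet comparisons of the study were fitted over all 12768 genes to read the lists of genes related to *Rbm3* and *Cirbp*. At an adjusted p under 0.15, edgeR called 10 genes from RC NoDS to HFD NoDS (0.0783%), 1 from RC → HFD to HFD → RC (0.00783%) and 19 among all 4 groups (0.149%). Of 7 lists of related genes, body temperature control held a called gene, *Trh*. In the other 6 lists, pooled without it and with 83 genes tested, edgeR called 0 in each of these comparisons. DESeq2, limma-voom and limma-trend also called 0 of them, while 11, 8 and 10 of the 83 had an unadjusted edgeR p under 0.05. Without HFD → RC replicate 16, edgeR called 1 of them among all 4 groups, *Cryab*. Over all genes tested, such values made up 7.41%, 5.35% and 7.97%.

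Among genes tied to the regulation or action of *Rbm3*, 6 of 6 were tested and 0 were called. *Bdnf*, the ligand of TrkB, had a log2 fold change of 0.15 ± 0.161 (SE) from RC NoDS to HFD NoDS and 0.34 ± 0.152 from RC → HFD to HFD → RC (edgeR adjusted p = 0.899). *Ntrk2*, which encodes TrkB, differed by -0.07 ± 0.061 between the stable diets, and *Plcg1*, an enzyme of TrkB signalling, by -0.01 ± 0.0733. *Creb1*, a transcription factor of the same pathway, differed by -0.27 ± 0.170 and *Rtn3*, known as a target of *Rbm3* at synapses, by -0.16 ± 0.0934. *Hnrnph1*, a splicing regulator tied to the cold response of *Rbm3*, differed by -0.17 ± 0.0794 (edgeR adjusted p = 0.664). Inside the groups these genes did not share a direction with *Rbm3*, as r was 0.51 for *Bdnf*, 0.21 for *Plcg1*, 0.02 for *Rtn3*, -0.16 for *Ntrk2*, -0.23 for *Hnrnph1* and -0.39 for *Creb1*. With *Cirbp*, 4 of the 6 had a negative r, *Creb1* (-0.63), *Hnrnph1* (-0.44), *Ntrk2* (-0.43) and *Rtn3* (-0.40), while *Bdnf* (0.33) and *Plcg1* (0.16) were positive (median -0.41).

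Of the heat shock chaperones and their regulator, 18 of 18 were tested and 0 were called. The median log2 fold change of the list from RC NoDS to HFD NoDS was 0.12, with 14 of 18 genes higher in HFD NoDS, against a median of 0.01 over all genes. From RC → HFD to HFD → RC it was 0.00. The most abundant member, *Hsp90ab1*, differed by 0.10 ± 0.0492 (SE) between the stable diets, and *Hspa8* by 0.06 ± 0.0557 and *Hsp90aa1* by 0.02 ± 0.0932.

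Inside the groups, 17 of 18 heat shock genes had a negative r with *Rbm3*, with a median of -0.42. Over all genes, 49.4% had a negative r with *Rbm3* and the median was 0.00. The lowest were *Hsph1* (-0.66) and *Dnajb1* (-0.62), a nucleotide exchange factor and a cochaperone of Hsp70, and *Fkbp4* (-0.54) and *Hsp90ab1* (-0.54), a cochaperone and an isoform of Hsp90. The exception was *Cryab* (0.33), a small heat shock protein. For *Cirbp* 12 of 18 were negative, with a median of -0.28. *Hsp90aa1* (-0.76), *Hsph1* (-0.69) and *Hspd1* (-0.69) were the lowest with *Cirbp*, and *Cryab* was again positive (0.48). The genes of the list vary with each other, so they are not 18 separate observations. Leaving out single libraries gave from 13, without HFD → RC replicate 17, to 17 negative genes for *Rbm3*, and from 11 to 14 for *Cirbp*. *Hspa1a* and *Hspa1b*, in the list, are near-identical copies and their separate counts are uncertain.

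**Figure D3:**
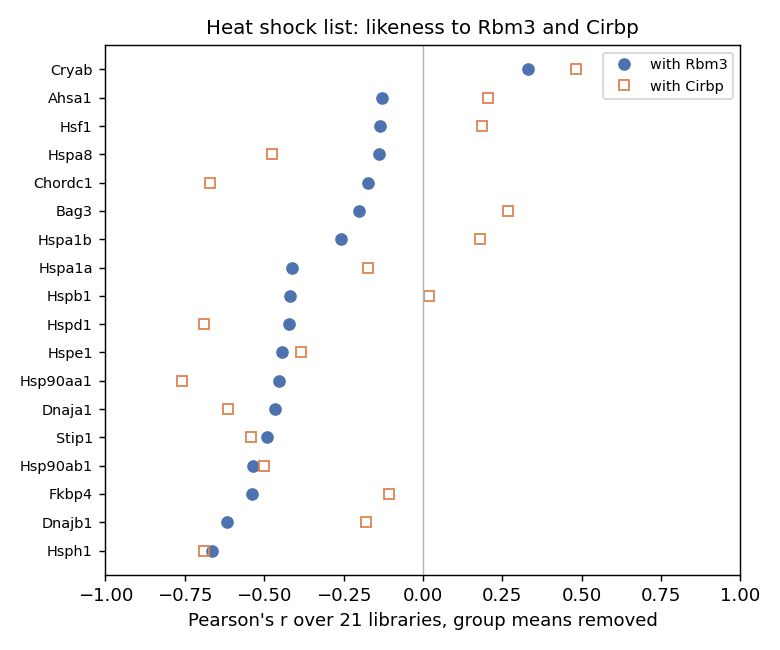
Pearson's r of each heat shock gene with *Rbm3* and with *Cirbp* inside the diet groups, over 21 libraries. All but *Cryab* lie below 0 with *Rbm3*, and 12 of 18 lie below 0 with *Cirbp*.

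Other genes of proteins with RNA recognition motifs mostly had a negative r with *Rbm3* and *Cirbp*. Of 18 listed, 16 were tested and 0 were called, and 1 of the 16 was higher in HFD NoDS than in RC NoDS (median log2 fold change -0.09). With *Rbm3*, 13 of 16 had a negative r (median -0.20), the lowest being *Tardbp* (-0.54) and *Tia1* (-0.52). With *Cirbp*, 13 of 16 were also negative (median -0.35). Over all genes, 49.4% had a negative r with *Rbm3* and 49.5% with *Cirbp*. Leaving out single libraries gave from 10 to 14 negative genes for *Rbm3* and from 10 to 13 for *Cirbp*. Both were lowest without HFD NoDS replicate 20. The genes of this list also vary with each other. Among CLK kinases and SR proteins, which set temperature-sensitive splicing, 11 of 16 were negative with *Rbm3* (median -0.13) and 11 of 16 with *Cirbp* (median -0.27). The median with *Rbm3* was -0.01 with the oligodendrocyte markers regressed out and -0.31 with the share of genes at 0 regressed out, so its size depends on the library measure held fixed. *Srsf5*, the most abundant of these, differed by -0.17 ± 0.0732 (SE) between the stable diets.

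The clock list, relevant because *Cirbp* is tied to clock rhythms, had 17 genes tested and 0 called. Its median r was 0.12 with *Rbm3* and 0.12 with *Cirbp*. *Tef*, the most abundant clock gene by count, differed by -0.01 ± 0.0603 (SE) between the stable diets, and *Cry2* by 0.10 ± 0.0793. Activity-dependent early genes, which rise with wakefulness, had 10 of 12 tested and 0 called, with a median r of -0.02 with *Rbm3* and 0.14 with *Cirbp*. All libraries were taken at a single time of day, so no daily cycle of *Rbm3* or *Cirbp* can be read from them.

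Among hypothalamic genes of body temperature control, 7 of 8 were tested and 1 was called. *Trh*, thyrotropin-releasing hormone, rose by 1.79 ± 0.167 (log2, SE) from RC NoDS to HFD NoDS (edgeR adjusted p = 2.36e-07). Its mean count was 598 reads in RC NoDS, 1282 in RC → HFD, 1431 in HFD → RC and 2042 in HFD NoDS. The order of the *Trh* means thus ended at HFD NoDS, while that of *Rbm3* ended at RC → HFD. *Trpm2*, a warmth-sensing channel, differed by 0.17 ± 0.115 between the stable diets. The median r of the list was 0.27 with *Rbm3* and 0.26 with *Cirbp*.

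The *Cirbp* promoter is shown because a short element in it, TCCCCGCC, has been described as responsive to mild cold. RefSeq promoters (GRCm38.p6) held an entry for 1 of 2 genes, *Cirbp*, with 2 starts. In the 250 bases before the upstream start, at chr10:80167589-80167838 (plus strand), the letters TCCCCGCC occurred 1 time, at base 4, in capitals here. They occurred 0 times before the other start, at chr10:80167921-80168170. Of 32851 promoter windows of the same length, 4.64% held TCCCCGCC on either strand. GC boxes (GGGCGG, both strands, whose letters can overlap the element) occurred 3 times in the printed window, and 32.7% of promoters held at least 1. A match of letters is a description and says nothing of whether a factor binds there.
Cirbp: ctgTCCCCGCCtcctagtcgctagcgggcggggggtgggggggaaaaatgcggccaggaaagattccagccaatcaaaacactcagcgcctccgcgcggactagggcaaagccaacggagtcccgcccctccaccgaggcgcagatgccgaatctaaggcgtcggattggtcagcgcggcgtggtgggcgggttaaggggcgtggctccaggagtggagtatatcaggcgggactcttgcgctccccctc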

How the data were processed

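RNA was sequenced from VH punches in 21 libraries, grouped by diet from the sample labels. The authors merged the sequencing runs (Picard 2.7.1), aligned reads to mm9 (STAR 2.5.1b), left out reads of ribosomal RNA and mitochondria, and drew reads at random to equalise depth. They deposited whole-read counts per gene, and these counts were used as deposited, with no library left out. Genes averaging at least 50 reads (the study's High Filter) were tested. *Rbm3* and *Cirbp* passed this filter, but no test of their group differences is given. After TMM scaling, edgeR 4.0.16 was run under R 4.3.3 with its quasi-likelihood test (4 group means, Benjamini-Hochberg, threshold 0.15). Correlations used log2 CPM (prior count 2) with the group mean subtracted and 100000 two-sided permutations of libraries within groups, in Python 3.11.15 with numpy 2.4.6, pandas 2.3.3 and scipy 1.17.1. Plots were made with matplotlib 3.10.9. Exact matches of the transcripts were sought in NCBIM37 with GENCODE models.

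Genes named are *Rbm3* and *Cirbp*, the 5 highest and 3 lowest by r with each, every listed gene called, all genes of the *Rbm3* pathway list, and the 3 most abundant of each other list. *Hsph1*, *Dnajb1*, *Fkbp4*, *Hspd1*, *Cryab*, *Tardbp* and *Tia1* were named after their values were seen. The members and lists were chosen with earlier results of these data known. Alternatives were DESeq2 1.42.0, limma 3.58.1, other filters and scalings, library measures as covariates and each library left out, with 45 planned and 12 added after seeing the data. 1 listed marker gene is not reported here, and sums of its list are without it. The fits were tested on simulated data. Without molecular identifiers, several reads may come from 1 molecule, so the counting error given covers the sampling of reads only. Depth was between 16380781 and 16390598 reads per library.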

Additional observations from a re-analysis of the deposited data

Results flagged for a closer look

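In 4 of 72 groups of libraries examined, 1 library lay far from the others of its group, by its gap to the nearest as a share of the whole range. Chance alone gives this in about 1 in 20 groups. *Cirbp* had 1652 reads in RC → HFD replicate 9, where the other libraries had 1344 to 1396. The summed microglia markers came to 3855 reads in HFD NoDS replicate 23, against 3267 to 3391 in the others. Summed choroid plexus markers came to 1029 reads in RC → HFD replicate 12, against 1265 to 1354. Summed anterior pituitary markers came to 2874 reads in HFD → RC replicate 13, against 57 to 282. The part of these marker sums in the levels of *Rbm3* and *Cirbp* was not tested.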

How the results depend on the processing

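The group-centred r of *Rbm3* and *Cirbp* was positive under all 32 alternatives. It passed the threshold with the share of genes at 0 regressed out (r 0.59, rho 0.57) and, for r, without the 2 libraries farthest from the median of group-centred *Rbm3* (r 0.53, chosen after seeing the data; rho 0.40). Without centring it was 0.56, and rho 0.58. With single libraries left out r ran from 0.35 to 0.49 (adjusted p 0.0282 to 0.193) and rho from 0.28 to 0.52, passing for rho without RC NoDS replicate 5 or RC → HFD replicate 7. The cause was not tested. The *Rbm3* folds kept their sign in all 29 alternatives for each pair of groups. From RC NoDS to RC → HFD the fold lay between -0.67 and -0.59 with libraries left out, and between -0.66 and -0.53 otherwise. The fold from RC NoDS to HFD → RC (-0.21) ran from -0.27 to -0.13 with libraries left out, being -0.13 without HFD → RC replicate 17, and from -0.35 to -0.12 otherwise. From HFD → RC to HFD NoDS (-0.11) it ran from -0.19 without HFD → RC replicate 17 to -0.04 without HFD → RC replicate 15. The *Cirbp* fold from RC NoDS to RC → HFD (-0.17) lay between -0.22 and -0.12 with libraries left out and between -0.22 and -0.08 otherwise. The *Cirbp* fold from RC NoDS to HFD NoDS (-0.06) ran from -0.16 without HFD NoDS replicate 20 to -0.0013 without HFD NoDS replicate 23. The *Cirbp* folds from RC NoDS to HFD → RC and from HFD → RC to HFD NoDS changed sign in 2 and 3 of 29.

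Called genes from RC NoDS to HFD NoDS (10) were 17 with DESeq2, 6 with the ribosomal RNA share as a covariate, and 5 to 14 with libraries left out, 5 without RC NoDS replicate 1. From RC → HFD to HFD → RC (1) there were 5 with DESeq2, 3 with no filter and 2 with the Low Filter. With libraries left out there were 1 to 41, being 41 without HFD → RC replicate 16, 3 without HFD → RC replicate 15 or HFD NoDS replicate 23 and 2 without HFD → RC replicate 17. Among all 4 groups (19) there were 133 with DESeq2, 11 with limma-trend, 31 with no filter, 9 with the ribosomal RNA covariate, and 9 to 80 with libraries left out. These were 80 without HFD → RC replicate 16, 42 without HFD NoDS replicate 20, 30 without HFD NoDS replicate 19 and 29 without RC NoDS replicate 3. They were 12 without HFD NoDS replicate 23, 11 without RC NoDS replicate 5 or HFD → RC replicate 13, 10 without RC NoDS replicate 1 or RC → HFD replicates 8 or 9, and 9 without RC → HFD replicate 11. Over all 21 lists, of which 14 are lists of marker genes, the genes called in these comparisons numbered 4, 1 and 5. With libraries left out they were 2 to 5, 1 to 8 and 3 to 13. In the second comparison there were 2 with DESeq2, and in the third 3 with limma-voom.

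Limits: reads shared with the copies of *Rbm3*, pooled mice, 21 libraries, and group means of the share of genes without reads and of marker sums that lie apart bound what the levels of *Rbm3* and *Cirbp* can show.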

Other observations

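Outside the lists tied to temperature, marker genes named by the same rule were called as follows by edgeR. *Npy* and *Agrp*, hunger peptides of the ventral hypothalamus, were lower in HFD NoDS than in RC NoDS, with log2 fold changes of -1.26 ± 0.160 (SE, adjusted p = 7.79e-05) and -0.97 ± 0.197 (adjusted p = 0.0507). *Npy* was also higher in HFD → RC than in RC → HFD, by 0.94 ± 0.151 (adjusted p = 0.0116). *Hcrt*, the orexin precursor of the lateral hypothalamus, rose by 2.71 ± 0.557 from RC NoDS to HFD NoDS (adjusted p = 0.0513). *Gfap*, an astrocyte filament, and *Mobp*, a myelin gene, were called among all 4 groups (adjusted p = 0.125 for each). So were *Agrp* (edgeR adjusted p = 0.00259) and *Npy* (edgeR adjusted p = 4.74e-06). From RC NoDS to HFD NoDS the calls of *Agrp* and *Hcrt* were lost in 6 of 29 and 9 of 29 alternatives. Among all 4 groups the calls of *Gfap* and *Mobp* were lost in 17 of 28 and 14 of 28, and that of *Agrp* in 0 of 28. The calls of *Npy* and *Trh* were lost in 0.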
